A study of Mus musculus with 8 samples.

Results

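The 7 genes described here are Hoxa5, Hoxa7, Hoxa9 and Hoxa10 of the HoxA cluster and Hoxb3, Hoxb4 and Hoxb5 of the HoxB cluster. They were taken by symbol from the annotation of the array: every probe set whose single listed gene is one of the 7 was used, which gave 12 probe sets, 2 each for Hoxa5, Hoxa9, Hoxa10, Hoxb3 and Hoxb4 and 1 each for Hoxa7 and Hoxb5. All 7 genes were measured, out of 18193 genes on the array, among them 33 Hox genes.

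The samples were Sca1+Lin- cells of mouse bone marrow, sorted as positive for the surface marker Sca1 and negative for lineage markers, a gate that enriches stem and progenitor cells of the blood. Total RNA of 3 wild-type and 5 Sca1-MALT1 samples, with no treatment and no time course, was linearly amplified and hybridised to Affymetrix arrays with a single label. The genotype name joins Sca1, which marks stem and progenitor cells, with MALT1, a paracaspase of the NF-kB pathway in lymphocytes; the labels give no strain, age, sex, founder line, promoter or number of animals per sample. Values are log2 signals after RMA, and differences are Sca1-MALT1 minus wild type on the log2 scale.

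Hox genes encode homeodomain transcription factors that lie in clusters and are switched on along each cluster in a fixed order during development. In blood, several HoxA and HoxB genes are known to be active in stem and early progenitor cells and to be shut off as cells mature. Their proteins bind DNA with cofactors of the Meis and Pbx families, and their transcription is kept on by MLL (gene Kmt2a) with its partner menin and held off by Polycomb complexes. HOXA9 with MEIS1 is a driver of acute leukaemia, and HOXB4 is known for expanding stem cells in culture.

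The gate was checked against markers. The mean signal of 15 measured stem and progenitor markers (among them Kit, Cd34, Flt3 and Mecom) was 9.23 to 10.50 in wild type and 8.06 to 10.47 in Sca1-MALT1, above the array median on every array. Markers of mature cells were not at background either: 8 neutrophil markers averaged 12.26 to 12.81 in wild type and 10.54 to 14.00 in Sca1-MALT1. The 8 plasma cell markers averaged 8.82 to 9.07 in wild type and 11.07 to 12.78 in Sca1-MALT1, and 7 measured B cell markers averaged 10.01 to 10.68 and 7.46 to 8.81. Xist, transcribed from the inactive X chromosome, was high in Sca1-MALT1 replicates 2 and 4 (13.09 and 12.46) and read 6.20 to 6.58 on the other arrays. Probe sets of different genes have no common scale, so these means do not give shares of cells. In such bulk samples, fewer cells of a type and less RNA per cell cannot be told apart.

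None of the 7 Hox genes passed the test between genotypes in limma, and Hoxa9 alone had an unadjusted p under 0.05. Over all genes, 16 of 18193 passed, which is 0.0879%, and 10.2% had an unadjusted p under 0.05. The groups overlapped for each of the 7 genes, whereas over all genes the groups did not overlap in 7.13%. By probe set, none of the 12 passed against 0.0340% of 44105 probe sets, and the groups overlapped in all 12 against 6.77% without overlap. Of the 7 genes, 5 had a lower mean in Sca1-MALT1 and 2 a higher one, with a median difference of -0.30, while 49.3% of all genes were lower and their median difference was 0.0040. Of the HoxA genes described, Hoxa5, Hoxa7, Hoxa9 and Hoxa10 all had lower means. Their 7 probe sets all differed in that direction, the least by -0.04 in the dimmer probe set of Hoxa10. In the other 5 measured HoxA genes the brightest probe set differed the other way. The differences were 0.08 in Hoxa2, 0.29 in Hoxa3, 0.17 in Hoxa4, 0.09 in Hoxa11 and 0.09 in Hoxa13.

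Hoxa9, the HoxA gene best known from leukaemia and from stem cell self-renewal, had the largest difference and the widest spread. Its brightest probe set read 12.78, 11.97 and 11.14 on the wild-type arrays and 8.39, 11.70, 9.72, 9.44 and 11.48 on Sca1-MALT1 arrays 1 to 5. Sca1-MALT1 arrays 1, 3 and 4 lay below every wild-type array, and arrays 2 and 5 lay within the wild-type range. The 3 wild-type arrays averaged 11.97 ± 0.82 (SD) and the 5 Sca1-MALT1 arrays 10.15 ± 1.41, a difference of -1.82 (SE 0.78, 95% interval -3.59 to -0.04, limma adjusted p = 0.481; exact two-sided permutation p = 0.107). The dimmer Hoxa9 probe set read 7.91, 7.98 and 7.35 in wild type and 7.25, 7.56, 7.34, 7.06 and 7.56 in Sca1-MALT1, a difference of -0.39 (SE 0.18, limma adjusted p = 0.561 over 44105 probe sets). Arrays 2 and 5 were again the highest of the Sca1-MALT1 group in that probe set.

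Hoxa5 and Hoxa7 lie on the 3' side of Hoxa9 in the cluster. The brighter Hoxa5 probe set read 8.31, 8.03 and 7.80 in wild type and 7.63, 7.98, 7.72, 7.38 and 7.71 in Sca1-MALT1, with 1 Sca1-MALT1 array, replicate 2, above the lowest wild-type value. The difference was -0.36 (SE 0.17, 95% interval -0.74 to 0.01, limma adjusted p = 0.504), and that of the dimmer probe set was -0.25 (SE 0.42). Hoxa7 read 8.76, 8.59 and 8.05 in wild type and 8.19, 8.09, 7.97, 7.96 and 8.31 in Sca1-MALT1. Here wild-type replicates 1 and 2 stood above all other arrays, and wild-type replicate 3 lay inside the Sca1-MALT1 range. The difference was -0.36 (SE 0.17, 95% interval -0.76 to 0.03, limma adjusted p = 0.525).

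Hoxa10, the neighbour of Hoxa9 on its 5' side, was near the array medians. It read 6.81, 6.59 and 5.66 in wild type and 5.41, 6.39, 5.68, 5.81 and 6.96 in Sca1-MALT1, where replicate 5 held the highest value of all 8 arrays. The difference was -0.30 (SE 0.39, 95% interval -1.20 to 0.60, limma adjusted p = 0.839). The second Hoxa10 probe set stayed between 3.86 and 4.24 on all arrays. RMA gives no detection call, so signals below the array medians were not read as absence.

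The 3 HoxB genes had very unequal spreads. Hoxb4, the gene used to expand stem cells, read 7.46, 7.56 and 7.71 in wild type and 7.46, 7.83, 7.20, 7.65 and 7.71 in Sca1-MALT1, a difference of -0.0061 (SE 0.16, 95% interval -0.36 to 0.35, limma adjusted p = 0.994). Its range over the 8 arrays, 0.62, was the smallest of the 7 genes and below the median range of all genes, 0.75. Hoxb3, a neighbour of Hoxb4, read 7.74, 7.24 and 6.93 in wild type and 6.44, 8.85, 7.21, 6.98 and 8.53 in Sca1-MALT1. Sca1-MALT1 replicates 2 and 5 exceeded every wild-type array and replicate 1 was below all of them. The mean difference was 0.30 (SE 0.55, 95% interval -0.96 to 1.56, limma adjusted p = 0.894). Its dimmer probe set stayed between 6.10 and 6.64.

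Hoxb5, a gene used to mark long-term stem cells in reporter mice, read 5.75, 5.83 and 5.14 in wild type and 4.96, 5.95, 5.11, 4.88 and 7.54 in Sca1-MALT1. Sca1-MALT1 replicate 5 alone lay above the array medians, with replicate 2 next. The difference was 0.11 (SE 0.59, 95% interval -1.23 to 1.46, limma adjusted p = 0.971). The intervals of Hoxb3 and Hoxb5 reach past 1 log2 unit above 0, and those of Hoxa10 and Hoxb5 past 1 unit below it.

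**Figure D1:**
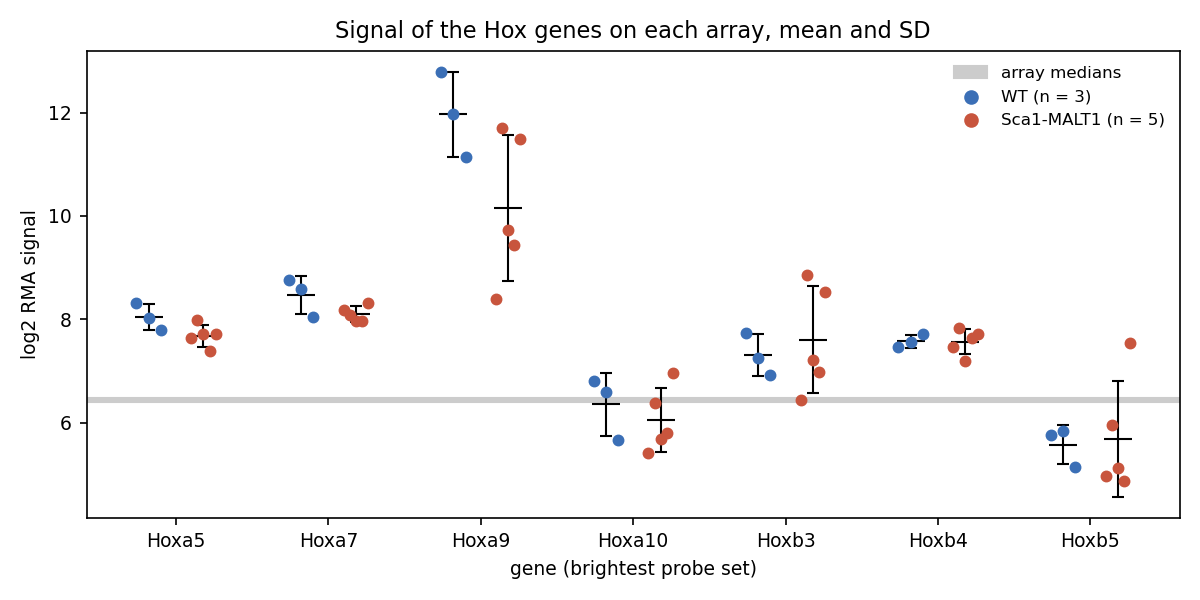
Log2 RMA signal (vertical axis) of the brightest probe set of each of the 7 Hox genes (horizontal axis) on 3 wild-type and 5 Sca1-MALT1 arrays; points are arrays, bars are the mean and SD, and the grey band is the range of the array medians. Hoxa9 spans 8.39 to 12.78, and the groups overlap in every gene.

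**Figure D2:**
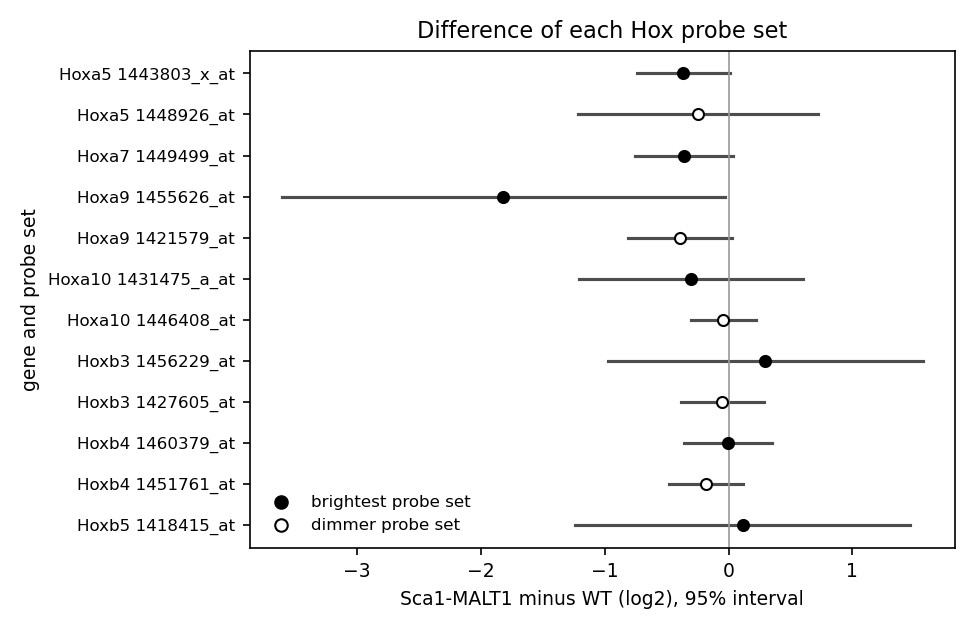
Sca1-MALT1 minus wild type on the log2 scale (horizontal axis) for each of the 12 probe sets, with the 95% interval of the limma fit over all probe sets; filled points are the brightest probe set of a gene and open points the dimmer one. The 7 probe sets of Hoxa5, Hoxa7, Hoxa9 and Hoxa10 all lie below 0, and the Hoxa9 interval is the widest.

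Several of the genes shared a pattern across arrays. Hoxa9 ranged over 4.39 log2 units, more than 99.4% of all genes, Hoxb5 over 2.66 (95.6%), Hoxb3 over 2.41 (94.1%) and Hoxa10 over 1.55 (84.6%). Sca1-MALT1 replicates 2 and 5 held the 2 highest values of the Sca1-MALT1 group in Hoxa9, Hoxa10, Hoxb3, Hoxb4 and Hoxb5. Sca1-MALT1 replicate 1 had the lowest value of all 8 arrays in Hoxa9, Hoxa10 and Hoxb3, and replicate 4 in Hoxa5, Hoxa7 and Hoxb5. Over the 8 arrays Hoxa9 correlated at r = 0.84 with Hoxa10, 0.83 with Hoxa5, 0.68 with Hoxa7, 0.63 with Hoxb3, 0.56 with Hoxb5 and 0.34 with Hoxb4. Without Sca1-MALT1 replicates 1 and 4, r was 0.75, 0.82, 0.84, 0.30, 0.32 and 0.44 in the same order. As deviations from the group means it was 0.896, 0.705, 0.461, 0.987, 0.781 and 0.429, so the order depends on the measure and Hoxb3 then stood highest. These are descriptions over 8 arrays, and the labels do not state which arrays were normalized jointly. In Hoxa9, 3 arrays lie at or below 9.72 and 5 at or above 11.14, a gap of 1.42. Too few lie on either side of that gap to test the relation within a side.

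**Figure D3:**
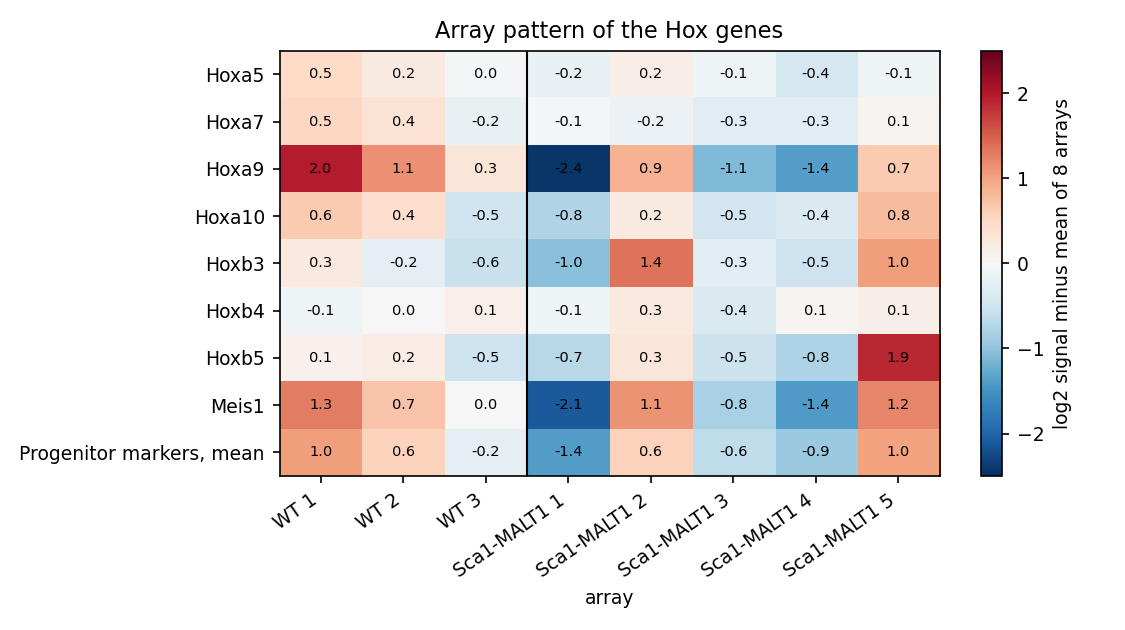
Log2 signal of each Hox gene, of Meis1 and of the mean of 15 progenitor markers (rows) on each array (columns), each row shown as the deviation from its own mean over 8 arrays; numbers in the cells are these deviations, and the vertical line separates wild type from Sca1-MALT1. Hoxa9 deviates by 1.95 in wild-type replicate 1 and by -2.44 in Sca1-MALT1 replicate 1. Meis1, which is among the 15 markers, and the marker mean are low on the same Sca1-MALT1 arrays 1, 3 and 4.

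The 250 bases before the annotated start are shown for the gene with the widest spread (Hoxa9), the one with the narrowest (Hoxb4) and the one that held a searched motif (Hoxa7). Windows were available for 5 of the 7 genes, 6 windows in all, from RefSeq on GRCm38.p6. They were searched on both strands for TTTATG (bound by Cdx and posterior Hox proteins), TGACAG (Meis), TGATNNAT (Pbx with Hox) and an NF-kB motif (GGGAA, then 3 bases of any kind, then CC), motifs that can overlap one another; matches are in capitals. The windows are chr6:52227371-52227620 and chr6:52218574-52218823, both on the minus strand, and chr11:96318017-96318266 on the plus strand, each printed 5′ to 3′ toward the start.
Hoxa9: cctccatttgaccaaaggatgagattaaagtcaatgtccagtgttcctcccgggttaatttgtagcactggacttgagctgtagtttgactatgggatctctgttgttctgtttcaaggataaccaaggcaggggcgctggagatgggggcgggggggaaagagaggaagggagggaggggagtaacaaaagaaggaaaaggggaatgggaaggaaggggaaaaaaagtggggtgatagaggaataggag
Hoxa7: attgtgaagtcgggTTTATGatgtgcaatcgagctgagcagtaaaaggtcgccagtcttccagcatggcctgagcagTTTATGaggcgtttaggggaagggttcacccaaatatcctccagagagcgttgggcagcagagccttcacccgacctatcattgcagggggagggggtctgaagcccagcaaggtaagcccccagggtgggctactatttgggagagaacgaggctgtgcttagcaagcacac
Hoxb4: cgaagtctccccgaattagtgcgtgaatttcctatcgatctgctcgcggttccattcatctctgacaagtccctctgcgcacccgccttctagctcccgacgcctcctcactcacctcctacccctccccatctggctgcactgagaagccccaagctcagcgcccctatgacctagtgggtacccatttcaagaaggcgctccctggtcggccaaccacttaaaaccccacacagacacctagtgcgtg
TTTATG occurs in Hoxa7 at 236 and 173 bases before the start, and no other searched motif occurs in any of the 6 windows. Of 32851 windows of this length in the table, 10.8% hold TTTATG, 15.9% TGACAG, 7.68% TGATNNAT and 4.94% the NF-kB motif. A match is a description of letters, not of binding.

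Of 26 other Hox genes with a probe set, 24 had a mean below the lowest array median, and 23 ranged over less than 1 log2 unit. None passed the test; 15 had a higher mean in Sca1-MALT1 and 11 a lower one, with a median difference of 0.06, which was -0.03 without wild-type replicate 3 and -0.02 when the dimmest genes were left out. The groups did not overlap in 2 of them, both higher: Hoxa3 at 0.29 (SE 0.11, limma adjusted p = 0.444), whose 3 dimmer probe sets differed the other way, and Hoxc4 at 0.49 (SE 0.23, limma adjusted p = 0.512). Over all genes the groups did not overlap with higher values in 4.27%. Hoxd13, whose brighter probe set differed by -0.36 (SE 0.14, limma adjusted p = 0.438), read below the array medians in every sample. Hoxb2 and Hoxb6, named after their values were seen, were the only other Hox genes that ranged over more than 1.5 log2 units, and both are HoxB genes with their peak in Sca1-MALT1 replicate 5. Hoxb2 read 6.45, 6.14 and 5.81 in wild type and 5.62, 6.15, 5.74, 5.99 and 7.58 in Sca1-MALT1. Hoxb6 read 5.10, 5.74 and 5.09 in wild type and 5.12, 5.69, 5.39, 5.27 and 7.04 in Sca1-MALT1. Replicate 5 therefore stood highest in Hoxb2, Hoxb5 and Hoxb6, and second to replicate 2 in Hoxb3 and Hoxb4.

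**Figure D4:**
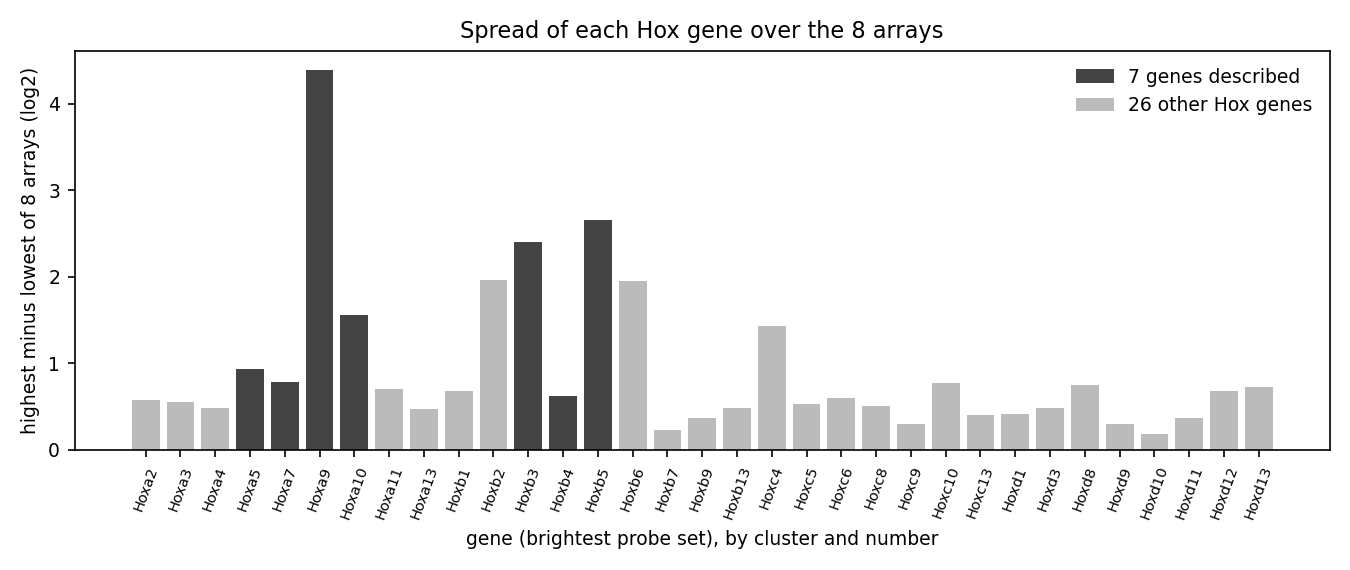
Highest minus lowest log2 signal over the 8 arrays (vertical axis) for the brightest probe set of each of 33 Hox genes (horizontal axis, by cluster and number); dark bars are the 7 genes described and pale bars the 26 others. Hoxa9 stands at 4.39, Hoxb2 and Hoxb6 at 1.96 and 1.95, and Hoxd8 is the highest HoxD gene at 0.75.

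Among the cofactors, Meis1, the usual partner of Hoxa9, followed the Hoxa9 pattern. Meis1 read 10.77, 10.21 and 9.51 in wild type and 7.39, 10.62, 8.68, 8.09 and 10.72 in Sca1-MALT1, with replicates 1, 3 and 4 below all wild-type arrays, as for Hoxa9. Its difference was -1.06 (SE 0.80, limma adjusted p = 0.705), with the same sign in 3 of 3 probe sets, and it correlated with Hoxa9 at r = 0.96 (rho 0.91; r = 0.88 without Sca1-MALT1 replicates 1 and 4, the arrays farthest from the Hoxa9 median). Of 8 measured cofactors none passed, 5 had higher means and 3 lower. Meis3 alone of the 8 had no overlap between the groups, against 4.27% of all genes with higher values and no overlap. It stood higher in Sca1-MALT1 by 0.49 (SE 0.13, limma adjusted p = 0.298). Pbx2 differed by -0.36 (SE 0.22, limma adjusted p = 0.637). Pbx3, another leukaemia cofactor of Hoxa9, correlated with Hoxa9 at 0.03.

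Regulators of Hox transcription had small median differences. Of 16 measured activators none passed and 10 had lower means (median -0.08, or -0.03 without wild-type replicate 3): Kmt2a itself differed by -0.09 (SE 0.21) and Men1 by -0.15 (SE 0.20). The 3 activators with the lowest p were Psip1, which tethers MLL and menin to chromatin, at 0.58 (SE 0.17, limma adjusted p = 0.319), Mllt1 at -0.38 and Kat6a at 0.24; the probe sets of these 3 disagreed in sign. Of 15 Polycomb genes none passed and 10 had lower means (median -0.13, or -0.06 without wild-type replicate 3 and -0.05 with array weights). Ezh2, the histone methyltransferase of Polycomb complex 2, read 11.67, 11.09 and 11.68 in wild type and 10.24, 10.86, 10.63, 10.55 and 10.27 in Sca1-MALT1. These groups did not overlap, and the difference was -0.97 (SE 0.20, limma adjusted p = 0.194), against 2.87% of all genes with lower values and no overlap. Cbx7, a chromobox gene of Polycomb complex 1, differed by 1.17 (SE 0.41, limma adjusted p = 0.383), with 1 of 3 probe sets in the other direction, and Phc1 by -0.38 (SE 0.16, limma adjusted p = 0.476).

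Genes described as Hoxa9 or Meis1 targets in progenitors or leukaemia were lower in the median but none passed. Over 13 genes the median difference was -0.50, with 7 lower and 6 higher. It was -0.28 without Sca1-MALT1 replicate 1 and -0.32 without replicate 3. Sox4, a transcription factor of progenitors and leukaemia, read 12.54, 11.88 and 11.70 in wild type and 7.20, 10.84, 8.25, 9.50 and 10.58 in Sca1-MALT1. All Sca1-MALT1 arrays were below all wild-type arrays, and replicates 1, 3 and 4 were again the lowest. The difference was -2.77 (SE 0.80, limma adjusted p = 0.320), negative in all 8 Sox4 probe sets. Flt3, the receptor of early lymphoid and myeloid progenitors, differed by -1.59 (SE 0.53, limma adjusted p = 0.377), and Cd34, a surface marker of progenitors, by -2.15 (SE 0.88, limma adjusted p = 0.458). The groups did not overlap in 2 of the 13, Sox4 and Myb, the latter at -1.57 (SE 0.67, limma adjusted p = 0.486), where 2.87% of all genes were lower without overlap. The mean of the 13 genes correlated with Hoxa9 at r = 0.97 over 8 arrays. Flt3, Cd34 and Erg of this list are also among the 15 progenitor markers, so the lists are not separate.

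Stem and progenitor markers moved with Hoxa9 from array to array. Of 15 measured markers 12 had lower means in Sca1-MALT1 and none passed (median -0.84, but -0.48 without Sca1-MALT1 replicate 1 and -0.55 with the mean of each gene's probe sets); the 3 with the lowest p were Flt3, Cd34 and Hlf, a stem cell factor, at -1.33 (SE 0.45, limma adjusted p = 0.382). The list mean was 10.50, 10.05 and 9.23 in wild type and 8.06, 10.04, 8.82, 8.54 and 10.47 in Sca1-MALT1, so replicates 1, 3 and 4 were below all wild-type arrays and replicates 2 and 5 were not. It correlated with Hoxa9 at r = 0.95 (rho 0.93; 0.87 without Sca1-MALT1 replicates 1 and 4). Read against this mean on the same array, Hoxa9 stood at 2.28, 1.93 and 1.91 in wild type and at 0.33, 1.65, 0.90, 0.90 and 1.02 in Sca1-MALT1. These groups no longer overlapped: the difference was -1.08 (exact two-sided permutation p = 0.0179, the smallest that 56 splits allow), and 0.0824% of all genes were lower without overlap on that scale. The marker mean itself averaged 9.93 in wild type and 9.19 in Sca1-MALT1. Subtracting it raises the difference of every gene by the same amount, so fewer genes can be lower on that scale. Hoxb4, at -0.0061 before subtraction, stood at 0.73 after it. In limma on the subtracted values of all genes the Hoxa9 difference had an SE of 0.72 and did not pass (unadjusted p = 0.132, adjusted p = 0.538). In that fit 77 genes, 0.423%, passed. The SE was the same for all 7 Hox genes, so it does not give the spread of a single gene. Hoxa9 itself had SDs of 0.21 in wild type and 0.47 in Sca1-MALT1 on that scale. Hoxb3 went the other way, at -2.76, -2.80 and -2.30 in wild type and -1.62, -1.19, -1.61, -1.56 and -1.94 in Sca1-MALT1, a difference of 1.04 (exact two-sided permutation p = 0.0179), with 1.44% of all genes higher without overlap. Before subtraction the Hoxb3 difference was 0.30. Hoxb3 did not pass in limma on the subtracted values either (the same SE of 0.72, unadjusted p = 0.146, adjusted p = 0.538). Its own SDs on that scale were 0.28 in wild type and 0.26 in Sca1-MALT1.

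The comparison with the progenitor markers was chosen after the data were seen, and all 7 Hox genes were read in this way. Hoxb5 differed by 0.85 (exact two-sided permutation p = 0.0536), and Hoxa5, Hoxa7, Hoxa10 and Hoxb4 by 0.38, 0.38, 0.44 and 0.73, with exact permutation p-values of 0.214 to 0.554. Against the 11 markers other than Meis1, Flt3, Cd34 and Erg, Hoxa9 differed by -1.32 and Hoxb3 by 0.795 (exact two-sided permutation p = 0.0179 for each). Hoxb5 then differed by 0.61 (exact two-sided permutation p = 0.0893), and Hoxa5, Hoxa7, Hoxa10 and Hoxb4 by 0.13, 0.13, 0.19 and 0.49. With the marker mean as a covariate in limma over all genes, Hoxa9 differed by -0.83 (SE 0.22, unadjusted p = 0.0055, adjusted p = 0.345) and Hoxb3 by 0.98 (SE 0.21, unadjusted p = 0.0019, adjusted p = 0.246). Neither passed, and 13 genes, 0.0715%, passed that fit. A difference against this mean is one of the gene relative to these 15 markers and does not show which of them changed.

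**Figure D5:**
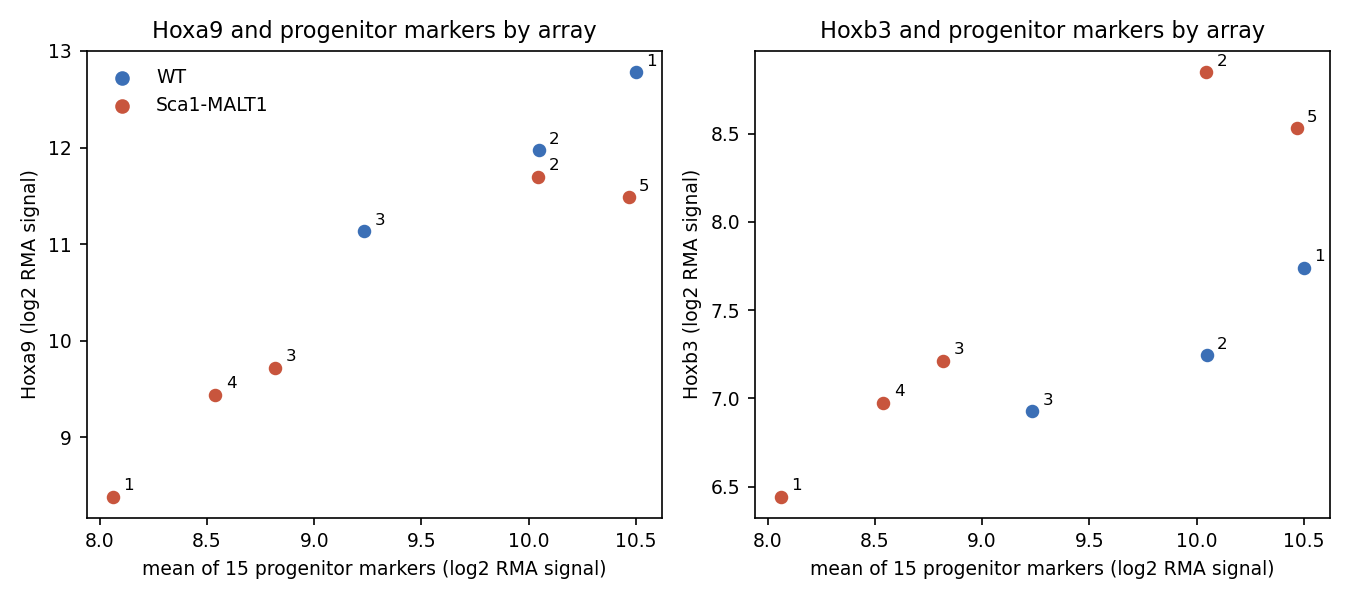
Log2 RMA signal of Hoxa9 (left, vertical axis) and Hoxb3 (right, vertical axis) against the mean log2 signal of 15 progenitor markers (horizontal axes) on each array; numbers are replicate numbers, blue is wild type and red Sca1-MALT1. In Hoxa9 the Sca1-MALT1 array 2 and wild-type array 2 have nearly the same marker mean, 10.04 and 10.05, and read 11.70 and 11.97, while in Hoxb3 the same arrays read 8.85 and 7.24.

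The genes whose array pattern was most like that of Hoxa9, by Pearson r over 8 arrays among 11522 genes with a mean at or above the lowest array median, were Sik2, Rgs18, Mamdc2, Pigh, Poglut3, Rps18, Elovl6, Snrpg, Cyp2j9 and Map7, with r of 0.964 to 0.981. Sik2 encodes a salt-inducible kinase and Rgs18 a regulator of G protein signalling of blood cells; Rps18 is a ribosomal protein gene, Snrpg one of the spliceosome and Elovl6 a fatty acid elongase. Mamdc2 had a pattern nearly as wide as Hoxa9: it read 9.30, 8.49 and 8.02 in wild type and 4.96, 8.09, 6.75, 5.94 and 8.75 in Sca1-MALT1. None of the 10 passed (limma adjusted p of 0.415 to 0.654). By the same measure 11 genes stood above Meis1, 421 above Hoxa10 and 458 above Hoxa5. The list depends on the measure: 1 of the 10 stayed among the 10 highest by Spearman's rho, 2 by deviations from the group means and 1 without Sca1-MALT1 replicates 1 and 4.

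Markers of other cells and RNA quality moved with Hoxa9 to different degrees over the 8 arrays. The mean of 10 endothelial markers was 7.48 to 8.52 in wild type and 6.51 to 7.37 in Sca1-MALT1 and correlated with Hoxa9 at 0.78. None of these 10 passed, 9 having lower means, led by Emcn at -1.19, Plvap at -1.69 and Eng at -0.55. The mean of the plasma cell markers correlated with Hoxa9 at -0.74; all 8 of them were higher in Sca1-MALT1 without overlap, against 4.27% of all genes, and Jchain rose by 2.58 (SE 0.27, limma adjusted p = 0.0163), with Xbp1 at 1.32 and Edem1 at 2.82. Without wild-type replicate 3 or Sca1-MALT1 replicate 1, 3 or 5, or with a replicate block, 0 of the 8 passed. The B cell marker mean correlated at 0.47, and at -0.46 as deviations from the group means. Igll1 fell by 3.92 (limma adjusted p = 0.00228) and Vpreb1 fell by 5.55 (limma adjusted p = 0.00596), and Pax5 differed by -1.16. The second Igll1 probe set differed the other way. Correlations were -0.15 for neutrophil markers (S100a9 at -1.30, S100a8 at -0.81, Csf3r at -1.27), -0.20 for 10 stromal markers (Dcn at 1.33, Postn at -1.73, Pdgfra at 1.37), -0.24 for 8 T cell markers (Zap70 at 0.80, Cd28 at 1.69, Thy1 at 1.43) and -0.58 for 7 erythroid markers (Car1 at 2.45, Gata1 at 0.94, Rhag at 1.03), with no gene of these 4 lists past the threshold. As deviations from the group means the stromal value turned to 0.28 and the T cell value to 0.37. On that measure the erythroid value was -0.12, the endothelial 0.59, the plasma cell -0.61 and the neutrophil -0.46. Without Sca1-MALT1 replicates 1 and 4 the neutrophil value turned to 0.62 and the stromal value to 0.02. The stromal means were 6.02 to 7.26 in wild type and 6.85 to 7.53 in Sca1-MALT1. Of the 10 stromal markers 9 had higher means in Sca1-MALT1, and Postn alone had a lower one. In Dcn 1 of 2 probe sets and in Pdgfra 2 of 3 differed the other way from the values given. The T cell means were 9.24 to 9.64 and 9.28 to 10.76, and the erythroid means 8.75 to 9.10 and 9.39 to 10.23. The 3' minus 5' signal of the beta-actin control probe sets, a measure of RNA degradation, was 2.14, 1.64 and 1.45 in wild type and 1.33, 1.53, 1.29, 1.25 and 2.49 in Sca1-MALT1, with the highest value in replicate 5. It correlated with Hoxa9 at r = 0.66 (rho 0.79). The same measure for Gapdh ran from 2.25 in Sca1-MALT1 replicate 4 to 3.20 in replicate 5 and correlated at 0.33, or at -0.12 without Sca1-MALT1 replicates 1 and 4. The part of these in the Hox values was not tested.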

How the data were processed

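The deposited values are log2 signals, 1 per probe set on each array, made with RMA per the submitters' processing notes; the software and which arrays were normalized jointly are not stated in the labels. Of 45101 probe sets, 64 were controls, 34945 had 1 gene symbol, 932 several and 9160 none listed. Symbols were updated by Entrez identifier with RefSeq names (GRCm38.p6), and each gene was represented by its brightest probe set (18193 genes). Genotypes were compared with limma 3.58.1 in R 4.3.3 (lmFit, eBayes, genotype the only term), Benjamini-Hochberg adjusted over all genes, or over 44105 probe sets for dimmer ones, at 0.05. Single values were compared with an exact two-sided permutation test over 56 splits. On data simulated from these arrays with 18193 genes, 54.8%, 87.5% and 92.5% of genes altered by 1, 2 and 3 log2 units were recovered. The noise was drawn independently for each gene, without patterns that genes share across arrays, and the altered genes were picked at random. These shares are averages over such genes. They do not apply to genes as variable as Hoxa9, Hoxb3 and Hoxb5, whose SEs were 0.78, 0.55 and 0.59.

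The genes, lists and tests were chosen with earlier results of these data known. Named genes were the 7 Hox genes, per list those past the threshold and the 3 of lowest p, and the 10 most like Hoxa9; others named are list members. Nothing in the labels ties the samples to separate animals, and the p-values then reflect only variation among these samples, possibly technical. The number of arrays, 3 and 5, limits the precision. Alternatives covered normalization, filters, probe set choice, variance model, array weights, a replicate block, sex read from Xist, leaving out each array and, added after the data were seen, the progenitor markers.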

Additional observations from a re-analysis of the deposited data

Results flagged for a closer look

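Over 73 quantities of the 5 Sca1-MALT1 arrays (Hox probe sets, list means and named genes), a test for 1 array standing apart picked out 4. That is about as many as chance gives at 1 in 20, and none was a Hox gene. All 4 are low values of Sca1-MALT1 replicate 4: the mean of the Polycomb genes at 9.45 (next 9.71), the mean of the T cell markers at 9.28 (next 10.37), Cd28 at 8.61 (next 10.36) and Thy1 at 10.99 (next 12.46). Cd28 and Thy1 are themselves among the T cell markers, so they are not separate from that mean.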

How the results depend on the processing

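None of the 7 Hox genes passed in any alternative run with limma; 1, Hoxa9, had an unadjusted p under 0.05 in the fit reported. Over 17 alternatives of normalization, filter, model and samples, the Hoxa9 difference ran from -2.23 to -1.11 (adjusted p of 0.311 to 0.762), and Hoxa5, Hoxa7 and Hoxa10 kept negative signs. Leaving out 1 array gave Hoxa9 differences of -2.23 to -1.38, a Hox median of -0.49 (without wild-type replicate 3) to -0.08 (without wild-type replicate 1), 4 to 6 Hox genes lower, and 8 to 38 genes past the threshold, against 16: 38 without Sca1-MALT1 replicate 2, and 10, 8 and 9 without replicates 1, 3 and 5. Array weights gave 28 genes and the term for sex 29.

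Leaving out 1 array at a time moved Hoxb3 between -0.013 (without Sca1-MALT1 replicate 2) and 0.59, Hoxb4 between -0.070 and 0.086 (above 0 when wild-type replicate 3 or Sca1-MALT1 replicate 1 or 3 was dropped), and Hoxb5 between -0.35 (without Sca1-MALT1 replicate 5) and 0.32, also below 0 when wild-type replicate 3 was dropped. For the dimmer probe sets the range was -0.13 to 0.040 for Hoxb3, -0.15 to 0.036 for Hoxa10 and -0.71 to 0.30 for Hoxa5. Centring on array medians turned Hoxb4 to 0.013, array weights turned Hoxb5 to -0.078 and the dimmer Hoxb3 probe set to 0.031, and the term for sex turned the dimmer Hoxa10 probe set to 0.00037. With the progenitor mean as covariate Hoxa10 turned to 0.18 and Hoxb4 to 0.061. With it subtracted Hoxa5 turned to 0.38, Hoxa7 to 0.38, Hoxa10 to 0.44 and Hoxb4 to 0.73. Subtraction raises the difference of every gene by the same amount. The cause of the other changes was not tested.

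With the replicate number as a replicate block, limma called 0 genes (2034 had an unadjusted p under 0.05), Hoxa9 differed by -2.03, Hoxb5 turned to -0.23 and the dimmer Hoxb3 probe set to 0.022. Deviations of same-numbered arrays correlated at -0.22, -0.04 and 0.01. Deviations from the means of so few arrays cannot decide whether same-numbered arrays share more than the number. The labels do not say either. Of 739 alternative values, 690 stayed within the limit set for their kind, 27 moved past it and 22 were counted as changing sign. Values of single genes and probe sets were judged by sign and call, counts by their ratio and medians by the size of the shift. A median that changed sign was thus not counted as such. The cofactor median went from 0.095 to -0.053 without genes below the lowest array median and counted as unchanged.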
